A study of Mus musculus with 12 samples.

Results

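Interferon-stimulated effector genes encode the proteins that carry out the antiviral state of a cell, such as the Mx GTPases, the IFIT proteins, viperin and the immunity-related GTPases. A set of 43 of these mouse genes was chosen by gene symbol or older alias, and 41 of them had a probe among the 27962 distinct gene names of the array. No probe carried a listed name or the RefSeq accession of Dtx3l or Xaf1, which were not analysed here. The 41 genes had 65 probes in all, and each of the 16 genes with more than 1 probe was represented by the probe with the highest mean log2 signal over the 12 arrays.

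The cells were C57MG, an immortal line of mouse mammary epithelial cells and a common model for Wnt proteins. They were moved from medium with serum and insulin to plain DMEM and exposed for 24 h to recombinant human Rspo2 (100 ng/ml), to recombinant mouse Wnt3a (100 ng/ml), to both at these doses, or to bovine serum albumin (BSA), the carrier protein, as the control. Each of the 4 groups had 3 biological replicates according to the labels. From the total RNA of each, the poly(A)+ part was amplified to cRNA labelled with a single dye, which was hybridized to an array of its own. No group received interferon, so the values below describe transcripts that these cells held without it.

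Type I interferons bind a receptor whose kinases, Jak1 and Tyk2, activate the complex ISGF3. This complex, which contains Stat2 and Irf9, binds the interferon-stimulated response element (ISRE) in the promoters of target genes, whereas interferon γ acts at gamma-activated sites (GAS). Wnt3a stabilizes β-catenin through Frizzled and Lrp receptors, and R-spondins amplify that signal.

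A level is given here as the log2 of the background-subtracted intensity less the 75th percentile of its array, so that 0 is that percentile. A change is a difference between group means on this scale. A gene rose or fell when limma's p, adjusted over the 22750 detected probes, was under 0.05, and it was called when the change was also at least 2-fold. All 41 genes were detected, a probe being detected if some group had all 3 of its arrays well above background. Between 51.3% and 64.1% of the probes of an array were well above background. The arrays lay on 3 slides, with BSA and Rspo2 replicate 1 on the first, Rspo2 replicates 2 and 3 with Wnt3a replicates 1 and 2 on the second, and Wnt3a replicate 3 with the combination on the third. Because neither Wnt3a nor the combination shared a slide with BSA, both of those contrasts run between slides.

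The labelled cell type was checked against its markers. Of 8 epithelial markers 3 were detected (Krt14, Krt8 and Krt5), while Epcam, Cdh1, Cldn7, Krt18 and Krt19 were not. All 7 mesenchymal and myoepithelial markers were detected, among them Vim, Acta2 and Col1a1. Of 10 leukocyte markers 6 were detected, and the defining marker Ptprc was not, nor were Emr1, Itgam and Itgax. The summed level of the 6 (the sum of their intensities over the 75th percentile of the array) lay between 7.36 and 8.25 on the BSA arrays, between 8.73 and 9.65 with Rspo2, between 7.10 and 7.67 with Wnt3a and between 5.10 and 5.56 with the combination, and Cd14 fell by 0.79 with the combination. The same sum over the 3 epithelial markers was between 9.999 and 10.6 on the BSA arrays, between 9.61 and 12.2 with Rspo2, between 15.2 and 16.8 with Wnt3a and between 22.4 and 25.7 with the combination. Most of that sum was Krt14, which rose by 1.24 with the combination, whereas Krt8 fell by 1.15 and the change of Krt5 did not pass (0.22, adjusted p = 0.387). Over the 7 mesenchymal and myoepithelial markers it was between 643.7 and 650.7 on the BSA arrays and between 700.8 and 814.7 on the treated arrays. These marker sums moved with the treatments beside the results below, and their part in those results was not tested.

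With Rspo2 plus Wnt3a 28 of the 41 interferon-stimulated genes fell and 16 were called lower, up to 9.26-fold for Mx2, while 13 did not pass. With Wnt3a alone 26 fell and 10 were called lower, and with Rspo2 alone 17 fell and only Mx2 was called. Isg20 rose with Rspo2 and with Wnt3a, and no gene was called higher with any treatment. Among all detected probes, 3.79% were called lower with the combination, 2.11% with Wnt3a and 0.62% with Rspo2, and 1.28%, 0.404% and 0.101% were called higher. At any size, 17.3%, 13.2% and 5.93% of all detected probes fell, against 68.3%, 63.4% and 41.5% of the 41 genes, of which 39.0%, 24.4% and 2.44% were called. The last share is 1 gene. The genes were chosen with earlier results of these data known and are counted by their brightest probe, whereas all detected probes enter the other shares. These shares are therefore descriptions. In the other direction, 10.9% of the probes rose with Rspo2 and 18.3% with Wnt3a, beside the 1 gene of this set. Mx1 and Gbp6 were detected through their BSA arrays alone, a rule that favours calling them lower. Of the 39 genes well above background on all 12 arrays, 14 were called lower with the combination, 8 with Wnt3a and 1 with Rspo2. Of the 20407 probes kept by that filter, 610, 237 and 38 were called lower.

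The median change of the 41 genes was -0.25 with Rspo2, -0.51 with Wnt3a and -0.68 with the combination, whereas the median of all detected probes was 0.01, 0.00 and 0.04. Each array showed this as well. The median over the 41 genes of the difference from the BSA mean was 0.06, -0.05 and -0.02 on the BSA arrays, -0.29, -0.19 and -0.31 with Rspo2, -0.52, -0.45 and -0.58 with Wnt3a, and -0.71, -0.70 and -0.70 with both, so no 2 groups overlapped. Fewer cells with a transcript and less of it per cell cannot be told apart in these cultures. The 3 contrasts share the BSA arrays and are not independent of each other.

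**Figure D1:**
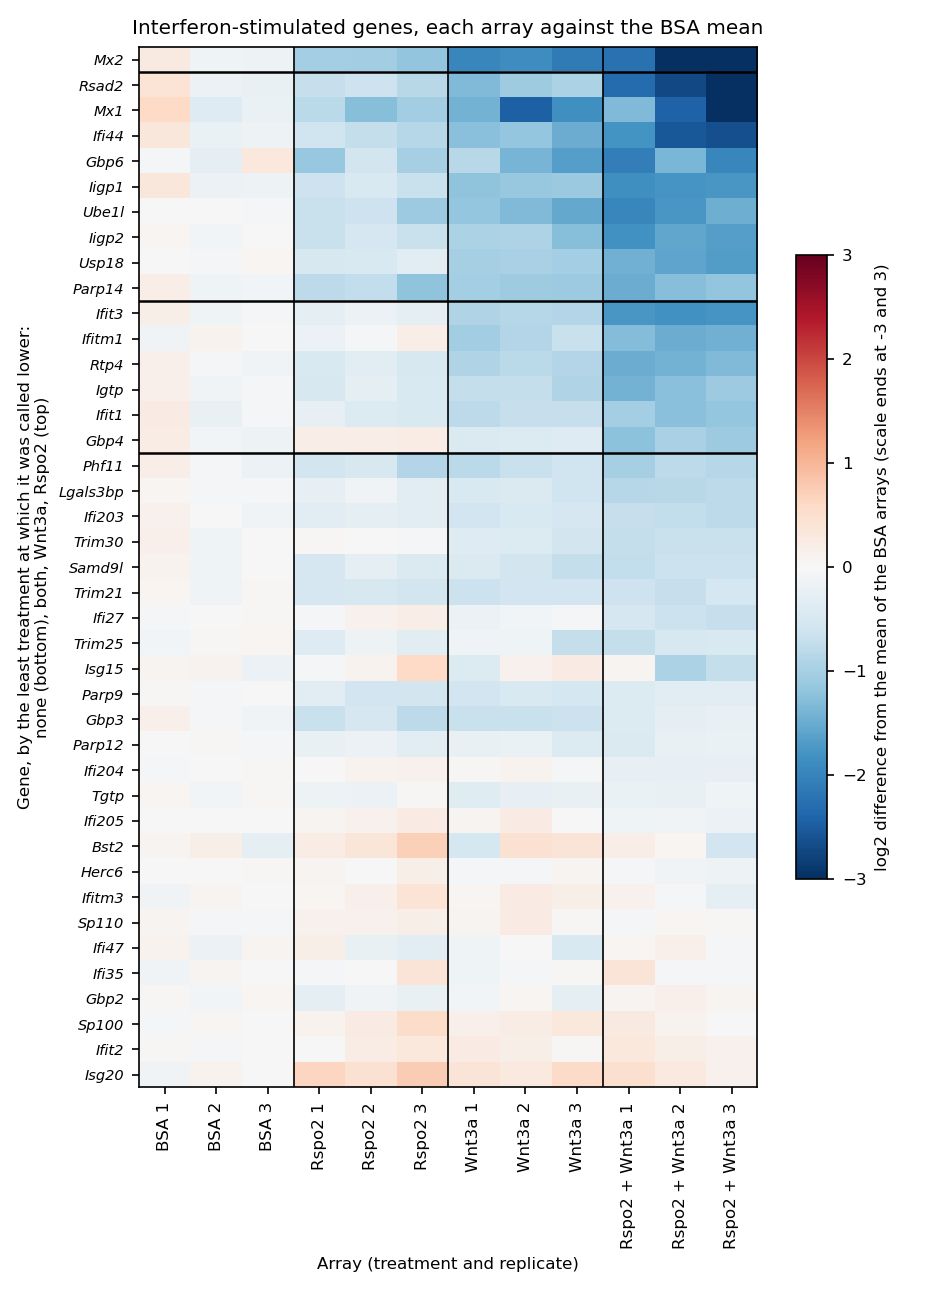
Difference of each array (columns, 4 treatments with 3 replicates) from the mean of the BSA arrays for the 41 genes (rows), on a log2 scale whose colours end at -3 and 3. Rows are grouped by the least treatment at which a gene was called lower (Rspo2 for Mx2 at the top, then Wnt3a, then the combination, then none). In 23 of the 41 rows the group means step down from BSA to Rspo2 to Wnt3a to the combination. No share over all probes was computed for this count.

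With slide as a term of the fit, the medians were -0.29, -0.52 and -0.78, and 0, 3 and 8 genes were called lower with Rspo2, Wnt3a and the combination, against 0.171%, 0.484% and 1.54% of all probes. The genes that passed as lower at any size numbered 0, 3 and 9, in place of 17, 26 and 28. The 3 genes called with Wnt3a were Ifitm1 (-1.22, adjusted p = 0.0279), Usp18 and Iigp2. The 8 genes called with the combination were Ifit3, Rsad2, Ifitm1, Usp18, Igtp, Iigp1, Iigp2 and Rtp4, and Ifi27 also fell. With normexp background correction in place of the scanner's subtraction, 0, 6 and 17 of the genes that fell still passed, and with median scaling 8, 15 and 23. Within slide 1, the single Rspo2 array was below the BSA mean for 30 of the 41 genes, with a median difference of -0.29. Within slide 2, Wnt3a was below Rspo2 for 35 genes (median -0.27), and within slide 3 the combination was below the single Wnt3a array for 31 (median -0.23). Of all detected probes 46.2%, 52.8% and 50.7% were lower in these 3 contrasts. The fit with slide as a term is made from these same differences, so they are not a further check on it. That fit links the combination to BSA only through these 3 steps, by the single Rspo2 and single Wnt3a arrays.

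Promoter sequence was compared for the genes with an entry in the RefSeq promoter table (GRCm38.p6, from 250 bases before each annotated start), which held 30 of the 41. An ISRE core was searched as GAAANNGAAA on either strand (TTTCNNTTTC on the other), and a GAS core as TTCNNNGAA, which is its own reverse complement. At least 1 ISRE core was found for 16 of the 30 genes (53.3%), against 3.99% of all 27025 genes of the table, and a GAS core for 8, against 9.55% of all genes. The ISRE core was held by 5 of the 8 matched genes that were called lower with a treatment and by 11 of the 22 that were not called. The table had no entry for 8 of the 16 called genes, among them Mx1, Mx2 and Usp18, and for 3 of the 25 others. These counts therefore do not compare all called genes with all the others. A match is a run of letters and was not tested as a site. The stretches below are the matches of genes that were called lower with the combination (Ifit1, Ifit3, Rsad2, Igtp and Iigp2) and of genes that were not called although they hold the same letters (Isg15, Bst2, Gbp2 and Tgtp), each 5′ to 3′ on the strand of the gene with ISRE and GAS cores in capitals.
Ifit1 (chr19:34640765-34640833, plus strand): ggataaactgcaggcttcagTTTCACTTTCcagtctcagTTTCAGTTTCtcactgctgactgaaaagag
Ifit3 (chr19:34583353-34583436, plus strand): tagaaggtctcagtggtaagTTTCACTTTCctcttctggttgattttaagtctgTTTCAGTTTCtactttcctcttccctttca
Rsad2 (chr12:26456543-26456592, minus strand): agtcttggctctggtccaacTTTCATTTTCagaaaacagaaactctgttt
Igtp (chr11:58199491-58199551, plus strand): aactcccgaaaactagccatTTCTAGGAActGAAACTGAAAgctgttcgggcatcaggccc
Iigp2 (chr11:58214882-58214942, plus strand): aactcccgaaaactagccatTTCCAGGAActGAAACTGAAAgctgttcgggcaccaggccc
Isg15 (chr4:156200855-156200916, minus strand): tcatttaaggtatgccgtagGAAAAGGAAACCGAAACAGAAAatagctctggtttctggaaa
Bst2 (chr8:71537567-71537628, minus strand): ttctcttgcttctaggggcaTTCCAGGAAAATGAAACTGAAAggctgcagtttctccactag
Gbp2 (chr3:142620584-142620633, plus strand): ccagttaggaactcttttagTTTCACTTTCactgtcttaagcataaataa
Tgtp (chr11:48992294-48992354, minus strand): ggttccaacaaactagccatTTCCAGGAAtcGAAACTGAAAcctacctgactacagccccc

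In Ifit1 the 2 ISRE cores began 104 and 85 bases before the start, and in Ifit3 156 and 122 bases before it. Isg15 held 3 ISRE cores that overlap each other, and in Bst2 a GAS core overlaps the first of 2 ISRE cores. Igtp, Iigp2 and Tgtp each held a GAS core just ahead of an ISRE core. The stretches of Igtp and Iigp2 were identical at 59 of 61 bases, and that of Tgtp shared 39 and 41 bases with them at the same offsets. Igtp and Iigp2 were called lower with the combination, with log2 changes of -1.25 and -1.68, whereas the change of Tgtp was -0.18 (SE 0.08, adjusted p = 0.104).

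**Figure D2:**
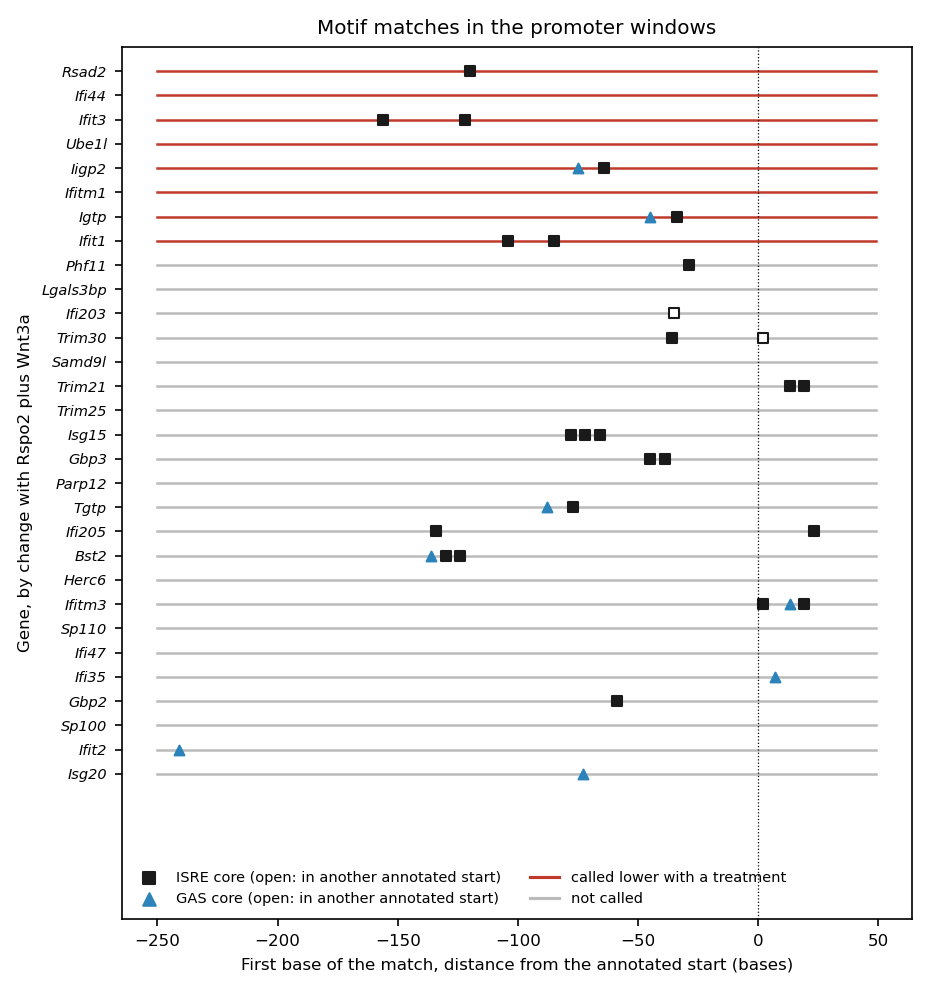
Positions of ISRE cores (squares) and GAS cores (triangles) relative to the annotated start (0 on the horizontal axis, in bases) in the promoter windows of the 30 matched genes, ordered by their change with Rspo2 plus Wnt3a. Red lines are the 8 matched genes called lower with a treatment and gray lines the 22 matched genes that were not called. Of these, 5 and 11 hold an ISRE core.

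The Mx proteins are GTPases that trap viral nucleocapsids, and the IFIT proteins bind viral RNA. Of these 5 genes, 4 were called lower with the combination. The level of Mx2 was -1.21, -1.61 and -1.64 on the BSA arrays, -2.50, -2.53 and -2.67 with Rspo2, -3.45, -3.35 and -3.61 with Wnt3a, and -3.73, -5.19 and -5.17 with both. The 4 groups did not overlap, and the first replicate of the combination lay between Wnt3a and the other two. Mx2 was 2.11-fold lower with Rspo2 (adjusted p = 0.0433), 3.96-fold lower with Wnt3a (adjusted p = 0.0018) and 9.26-fold lower with both (adjusted p = 3.94e-05). With slide as a term none of these 3 changes passed (adjusted p = 0.341, 0.269 and 0.121). The call with Rspo2 rests on the full set of arrays: it was lost when any of 9 of the 12 arrays was left out.

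Mx1 lay at -3.24, -4.22 and -4.03 with BSA, at -4.63, -5.11 and -4.88 with Rspo2, at -5.25, -6.29 and -5.67 with Wnt3a, and at -5.16, -6.26 and -7.81 with both. It was the least precise of the set and was well above background on only 1 array of each treated group. Its change with the combination was -2.58 (SE 0.55, adjusted p = 0.00403), and its second probe gave -3.46. With slide as a term the change was -2.31 and did not pass (adjusted p = 0.483).

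Ifit3 stepped down without overlap between any 2 groups. It lay at 0.77, 0.45 and 0.56 on the BSA arrays, at 0.31, 0.42 and 0.30 on those with Rspo2, at -0.32, -0.27 and -0.29 on those with Wnt3a, and at -1.15, -1.21 and -1.16 with both. The change with Rspo2 did not pass (-0.25, adjusted p = 0.0644). It fell by 0.89 with Wnt3a (SE 0.09, adjusted p = 1.43e-04) and was 3.41-fold lower with both (adjusted p = 3.09e-07), the lowest p of the set. Ifit1 was 2.21-fold lower with both (adjusted p = 5.19e-05), from 0.19, -0.28 and -0.11 with BSA to -1.08, -1.32 and -1.23. This change did not pass with slide as a term (adjusted p = 0.119).

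Ifit2, the remaining member of the family here, behaved otherwise. Its level was -0.36, -0.46 and -0.39 with BSA and -0.07, -0.23 and -0.27 with both, a change of 0.21 (SE 0.10) that did not pass (adjusted p = 0.111). Its other probe gave -0.22 with Rspo2, -0.50 with Wnt3a and 0.20 with both, so the 2 probes differed in sign in the single treatments. The Ifit2 windows held no ISRE core as searched.

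The other direct antiviral effectors were viperin (Rsad2), the membrane proteins Ifitm1 and Ifitm3, the tethering protein Bst2 and the exonuclease Isg20. Of these 5, 2 were called lower with the combination. Rsad2 lay at -1.23, -1.81 and -1.87 with BSA, at -2.32, -2.25 and -2.47 with Rspo2, at -2.95, -2.71 and -2.59 with Wnt3a, and at -3.93, -4.33 and -4.62 with both. It was 6.32-fold lower with the combination (adjusted p = 5.24e-06). It was also lower with both proteins than with Wnt3a alone, by 1.54 on the log2 scale (SE 0.20, adjusted p = 0.00131), and its other 2 probes gave -0.70 and -0.89 in that contrast.

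The change of Ifitm1 with Rspo2 did not pass. Its level was -0.79, -0.58 and -0.66 with BSA and -0.86, -0.72 and -0.48 with Rspo2 (change -0.01, adjusted p = 0.964). It was lower with Wnt3a, at -1.72, -1.55 and -1.35, and with both, at -1.99, -2.16 and -2.13, where it was 2.67-fold lower (adjusted p = 1.43e-05). The difference between Wnt3a and Rspo2 was -0.85 (adjusted p = 0.00817).

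Isg20 lay at 1.73, 1.94 and 1.83 with BSA, at 2.47, 2.30 and 2.60 with Rspo2, at 2.22, 2.13 and 2.42 with Wnt3a, and at 2.30, 2.12 and 1.95 with both. All 9 treated arrays were above the BSA arrays. It rose by 0.62 with Rspo2 (adjusted p = 0.0144) and by 0.42 with Wnt3a (adjusted p = 0.0204), and the change of 0.29 with both did not pass (adjusted p = 0.0727). Its direction was the same under the 4 other scalings and the deposited ratios, where the change with Rspo2 was between 0.45 and 0.79. The rise with Rspo2 did not pass under normexp (adjusted p = 0.731), and the rise with Wnt3a passed neither there (adjusted p = 0.288) nor with quantile normalization (0.0723) or the percentile of the probes above background on all arrays (0.0602). Neither passed with slide as a term (adjusted p = 0.166 and 0.50). Bst2 and Ifitm3 overlapped between BSA and the combination, with changes of -0.11 (adjusted p = 0.793) and -0.06 (adjusted p = 0.706).

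**Figure D3:**
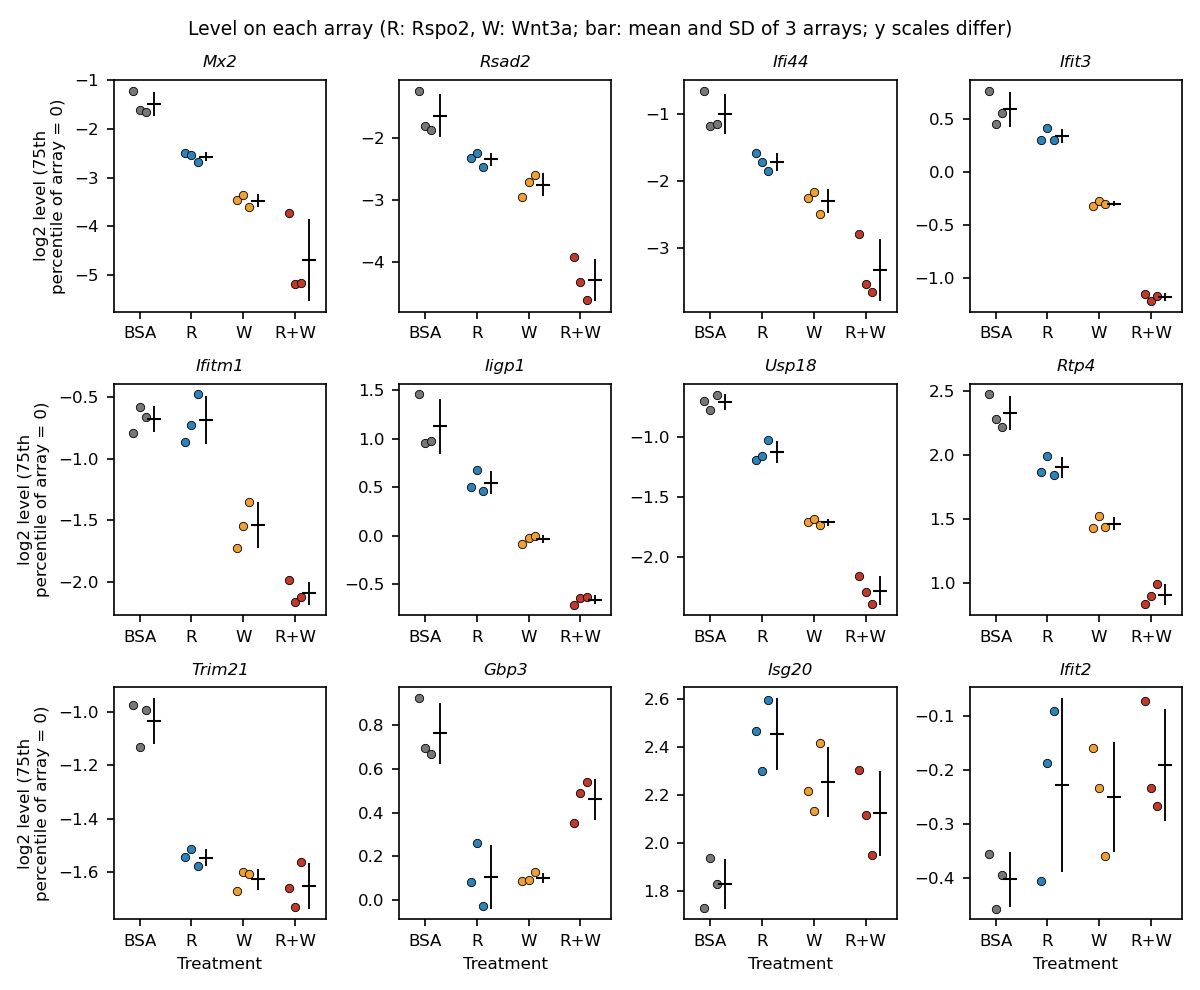
Log2 level of 12 genes on each array (75th percentile of the array = 0) for BSA, Rspo2 (R), Wnt3a (W) and both (R+W), with the mean and SD of 3 arrays beside the points and a different vertical scale in each panel. Mx2, Rsad2, Ifi44, Ifit3, Iigp1, Usp18 and Rtp4 step down from BSA to both, Ifitm1 from Wnt3a on, Trim21 and Gbp3 already fell with Rspo2, and Isg20 and Ifit2 do not fall.

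Isg15 is a ubiquitin-like protein, Ube1l its activating enzyme, Herc6 its ligase and Usp18 the protease that removes it. The activating enzyme and the protease were called lower, and the modifier and the ligase did not pass. Ube1l lay at -1.38, -1.39 and -1.43 with BSA, at -2.07, -2.02 and -2.50 with Rspo2, at -2.56, -2.72 and -2.92 with Wnt3a, and at -3.36, -3.13 and -2.87 with both. The Wnt3a and combination arrays overlapped, and the change was 2.53-fold with Wnt3a (adjusted p = 3.60e-04) and 3.30-fold with both (adjusted p = 1.85e-05). Neither change passed with slide as a term (adjusted p = 0.146 and 0.121).

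Usp18 lay at -0.70, -0.78 and -0.65 with BSA, -1.19, -1.16 and -1.02 with Rspo2, -1.71, -1.69 and -1.74 with Wnt3a, and -2.16, -2.29 and -2.40 with both. Its groups did not overlap, and it was 2.97-fold lower with both (adjusted p = 4.59e-07). Its change with Wnt3a, -1.003 on the log2 scale, lay at the 2-fold threshold, and the call was lost without BSA replicate 3 and without Wnt3a replicate 3. That call was also lost with normexp, quantile normalization, median scaling and the deposited ratios.

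Isg15 lay at 1.79, 1.81 and 1.55 with BSA, at 1.69, 1.81 and 2.32 with Rspo2, at 1.30, 1.84 and 1.95 with Wnt3a, and at 1.80, 0.77 and 1.00 with both. The spread within each treated group was larger than that of Usp18, the first replicate of the combination lay within the BSA range, and the change of -0.52 (SE 0.27) did not pass (adjusted p = 0.146). The change of Herc6, whose probe carries the name Herc5 on the array, was -0.10 (adjusted p = 0.325).

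The interferon-inducible GTPases act on the membranes around intracellular microbes, the guanylate-binding proteins (Gbp) and the immunity-related GTPases (Igtp, Iigp1, Iigp2, Tgtp and Ifi47) being their main families. Of 9 genes, 5 were called lower with the combination and 1 more fell. Iigp1 lay at 1.46, 0.95 and 0.97 with BSA, at 0.50, 0.68 and 0.46 with Rspo2, at -0.08, -0.02 and 0.00 with Wnt3a, and at -0.71, -0.64 and -0.63 with both. Iigp2 (Irgm2) lay at -0.39, -0.53 and -0.44, then at -1.13, -0.94 and -1.12, at -1.40, -1.38 and -1.72, and at -2.27, -2.001 and -2.12 in the same order of groups. Neither gene overlapped between groups, and with the combination they were 3.45-fold and 3.20-fold lower (adjusted p = 3.36e-06 and 2.18e-06). Both also fell between Wnt3a and the combination, each by 0.63 (adjusted p = 0.0178 and 0.00895), which did not pass with slide as a term.

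Gbp6 (Mpa2l on the array) was well above background on all BSA arrays, on 1 Rspo2 array and on no array with Wnt3a or both. It was therefore at least 1.98-fold lower with Wnt3a and at least 2.52-fold lower with both, against the lowest signals well above background. Limma tested the measured changes of -1.29 and -1.80 (adjusted p = 0.00454 and 4.46e-04), not these bounds. The bound with Wnt3a is under 2-fold, so the call there rests on signals not well above background. Neither change of Gbp6 passed with slide as a term (adjusted p = 0.198 and 0.204). Igtp was 2.38-fold lower with both, and Gbp4 (Mpa2 on the array) 2.13-fold lower. The change of Gbp4 did not pass with slide as a term (adjusted p = 0.0613). Gbp4 did not fall with Rspo2, where its change was 0.21 (adjusted p = 0.172), and its interaction was -0.89 (adjusted p = 0.00695), the interaction being the change with both less the sum of the changes with each.

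Gbp3, whose probe bears the name Gbp4 on the array but the accession of Gbp3, was nearer to BSA with the combination than with either protein alone. It lay at 0.92, 0.69 and 0.67 with BSA, at 0.08, 0.26 and -0.03 with Rspo2, at 0.09, 0.09 and 0.13 with Wnt3a, and at 0.35, 0.49 and 0.54 with both. It fell by 0.65 with Rspo2 (adjusted p = 0.00662), by 0.66 with Wnt3a (adjusted p = 0.00135) and by 0.30 with both (adjusted p = 0.0316). All combination arrays lay between the BSA arrays and the arrays of either protein alone. The interaction was 1.01 (SE 0.14, adjusted p = 0.00311), the only call of the 41 genes in that test, for which 1.27% of all probes were called positive and 0.651% negative. The interaction was again 1.01 with slide as a term but did not pass (adjusted p = 0.0798). The call was lost without Rspo2 replicate 3 and without replicate 2 or replicate 3 of the combination.

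Changes of Gbp2 (0.10, adjusted p = 0.421), Tgtp (-0.18) and Ifi47 (0.06, adjusted p = 0.795) with the combination did not pass. Tgtp had fallen with Wnt3a alone by 0.28 (adjusted p = 0.0259). Genes of these families are similar in sequence, as are the p200 genes, and whether their probes also bound RNA of a relative was not tested.

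Parp9, Parp12 and Parp14 are ADP-ribosyltransferases of the macrodomain and zinc-finger classes, and all 3 fell with the combination. Parp14 lay at 1.28, 0.94 and 1.00 with BSA, at 0.29, 0.33 and -0.12 with Rspo2, at 0.05, 0.02 and -0.02 with Wnt3a, and at -0.42, -0.20 and -0.12 with both. Most of its change was present with Rspo2 alone, at 1.88-fold (adjusted p = 0.00656), against 2.50-fold with both (adjusted p = 4.80e-05). Parp9 fell by 0.49 with Rspo2, by 0.52 with Wnt3a and by 0.36 with both, so its combination arrays (-0.58 to -0.49) did not go below those of Wnt3a (-0.72 to -0.63). Parp12 fell by 0.28 with Wnt3a and by 0.29 with both. Its change with Rspo2 was -0.25 (adjusted p = 0.0806). With slide as a term none of the 3 passed with the combination, the changes of Parp9 and Parp12 being -0.12 and -0.05 (adjusted p = 0.77 and 0.934) and that of Parp14 -1.08 (adjusted p = 0.151).

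The p200 proteins Ifi203, Ifi204 and Ifi205 sense or bind nucleic acid, and Sp100, Sp110 and Phf11 are nuclear proteins. None of the 6 was called and 3 fell with the combination. Phf11 fell by 0.64 with Rspo2, by 0.69 with Wnt3a and by 0.87 with both (adjusted p = 5.63e-04), from between -2.86 and -2.47 with BSA to between -3.67 and -3.46. Ifi203 fell by 0.31, 0.51 and 0.74, and its second detected probe gave larger changes of -0.78, -1.42 and -1.90, so its size depends on the probe. Ifi204 fell with both by 0.25 (adjusted p = 0.0166), from between 2.54 and 2.59 to between 2.31 and 2.32. The changes of Ifi205 (-0.14, adjusted p = 0.199) and Sp110 (0.02, adjusted p = 0.876) with both did not pass, and the probe of Ifi205 also lists an accession of Ifi204. The change of Sp100 was 0.12 with the combination (adjusted p = 0.462), and its other 2 probes gave -0.55 and -0.35, the only gene of 15 with several detected probes whose probes differed in sign in that contrast.

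Trim21, Trim25 and Trim30 are ubiquitin ligases, and all 3 fell with the combination without a call. Trim21, a receptor for antibodies inside the cell, lay at -0.97, -1.13 and -0.99 with BSA, at -1.55, -1.51 and -1.58 with Rspo2, at -1.67, -1.60 and -1.61 with Wnt3a, and at -1.66, -1.73 and -1.56 with both. Its drop of 0.51 with Rspo2 (adjusted p = 0.0056) was followed by only 0.02 between Wnt3a and the combination. Trim30 had the opposite profile, with a change of -0.01 with Rspo2 (adjusted p = 0.971), -0.45 with Wnt3a and -0.69 with both (adjusted p = 1.38e-04). Trim25, which ubiquitinates the RNA sensor RIG-I, fell by 0.55 with both (adjusted p = 0.0137), and its changes with Rspo2 (-0.28) and Wnt3a (-0.32) did not pass (adjusted p = 0.201 and 0.127). None of the 3 passed with the combination when slide was a term (adjusted p = 0.126 for Trim21, 0.807 for Trim25 and 0.274 for Trim30), and the change of Trim25 was -0.15.

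Of the other 6 genes, 2 were called lower with the combination and 3 more fell. Ifi44, a cytoplasmic protein of the type I response, lay at -0.66, -1.19 and -1.15 with BSA, at -1.59, -1.72 and -1.86 with Rspo2, at -2.25, -2.16 and -2.50 with Wnt3a, and at -2.79, -3.54 and -3.65 with both. It was 5.01-fold lower with both (adjusted p = 2.53e-05) and 1.02 lower on the log2 scale with both than with Wnt3a alone (adjusted p = 0.0238). Neither difference passed with slide as a term (adjusted p = 0.128 and 0.375). Rtp4, a chaperone of G-protein-coupled receptors, lay at 2.47, 2.28 and 2.22 with BSA, at 1.87, 1.99 and 1.84 with Rspo2, at 1.43, 1.52 and 1.44 with Wnt3a, and at 0.84, 0.90 and 0.99 with both. It was 2.67-fold lower with the combination (adjusted p = 1.21e-06), with no overlap between groups. Lgals3bp, a secreted glycoprotein, fell by 0.83 with both (adjusted p = 3.56e-05), Samd9l by 0.68 and Ifi27 (Ifi27l2a) by 0.61. The changes of Ifi27 with Rspo2 and Wnt3a alone, 0.10 and -0.11, did not pass (adjusted p = 0.437 and 0.349). Ifi35 overlapped between groups (0.09, adjusted p = 0.667).

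The genes were then ordered by the least treatment at which each was called lower. Mx2 alone was called with Rspo2. A further 9 were first called with Wnt3a, namely Rsad2, Mx1, Ifi44, Gbp6, Iigp1, Ube1l, Iigp2, Usp18 and Parp14. Ifit3, Ifitm1, Rtp4, Igtp, Ifit1 and Gbp4 were called only with the combination. This grouping depends on the slides, since Wnt3a and BSA shared none. With slide as a term Ifitm1 was called with Wnt3a, and Mx2, Rsad2, Mx1, Ifi44, Gbp6, Iigp1, Ube1l and Parp14 were not. The remaining 25 were not called, 12 of them falling with the combination at less than 2-fold. The group means stepped down from BSA through Rspo2 and Wnt3a to the combination in 23 of the 41 genes, which were 15 of the 16 called genes and 8 of the other 25. Calls with the combination in part fix these steps, and no share over all probes was computed, so these counts are descriptions. The steps also follow the order of the slides. For 15 called genes (all but Gbp6, for which there is only a bound) the change with Wnt3a was between 37.6% and 79.9% of that with the combination on the log2 scale (median 62.1%). The change with Rspo2 had a median of 31.7% and ranged from -19.0% for Gbp4 and 0.68% for Ifitm1 to 68.6% for Parp14. By the size of the change with the combination, none of the 40 pairs of neighbours differed by more than 2 standard errors of their difference. That error treats the 2 genes as independent, although both were measured on the same arrays. By this measure single ranks were not resolved, and neither was a boundary between neighbours. The groups rest on the 2-fold threshold, since with Wnt3a Usp18 (-1.003) and Ifit3 (-0.89) lay on either side of it. Mx2, Rsad2 and Ifi44 were among the first 4, and the place of Mx1 between them is uncertain, since it was well above background on 1 of its 3 combination arrays. This order also depends on the slides. With slide as a term the largest changes were those of Mx2 (-2.90), Rsad2 (-2.86), Mx1 (-2.31) and Ifitm1 (-1.96). Iigp1 (-1.91) and Ifi44 (-1.83) came after them.

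**Figure D4:**
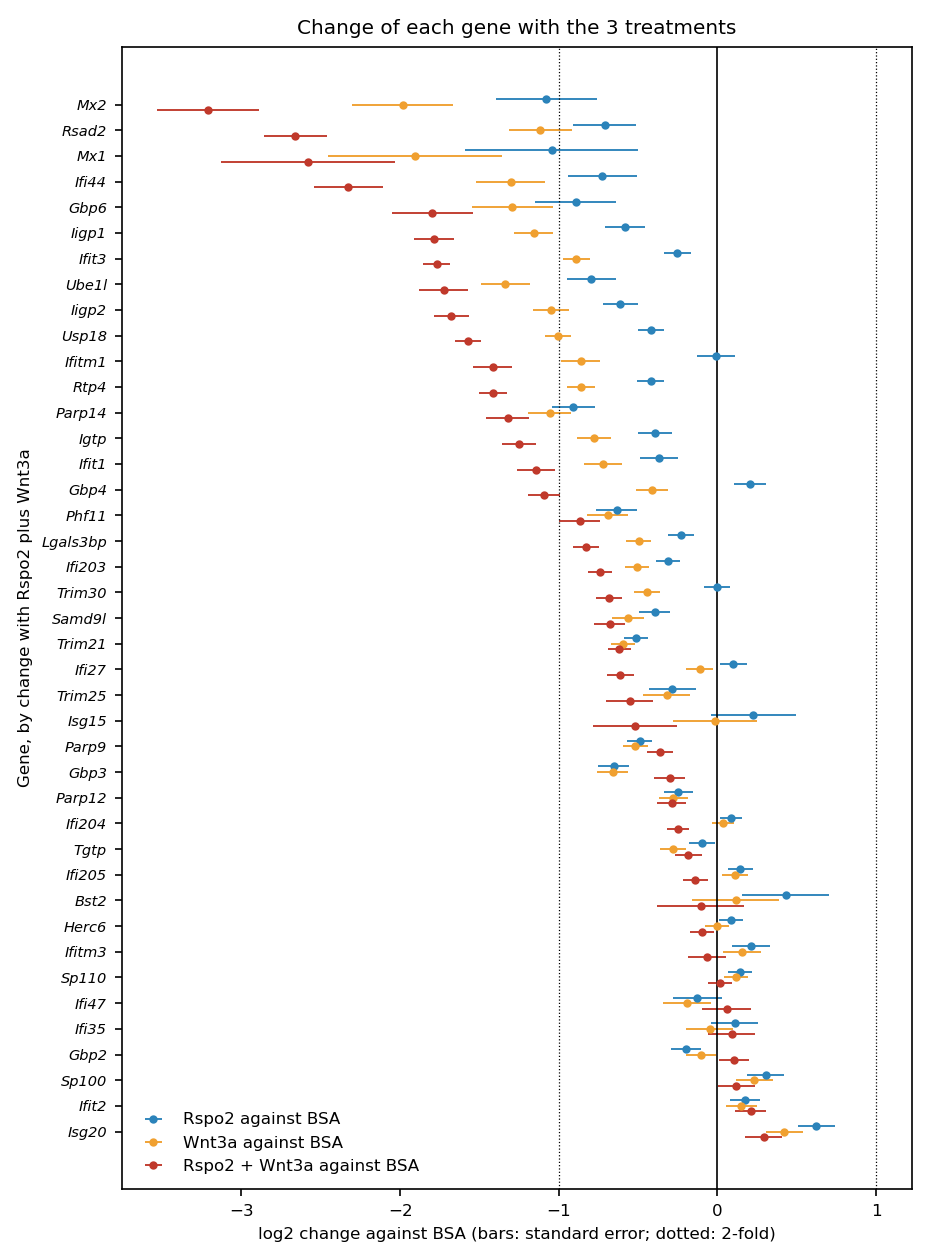
Log2 change against BSA with Rspo2 (blue), Wnt3a (orange) and both (red) for each of the 41 genes, ordered by the change with both, with standard errors as bars and dotted lines at 2-fold. The changes with both run from -3.21 for Mx2 to 0.29 for Isg20, and in the upper 16 genes the red points lie beyond the 2-fold line.

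The treatments were also compared directly. Between Rspo2 and Wnt3a no gene was called (limma, with 16 at an unadjusted p under 0.05), 0.101% of all probes being called lower. At any size 6 genes fell, Ifit3, Ifitm1, Usp18, Gbp4, Trim30 and Rtp4, by 0.44 to 0.85, against 1.09% of all probes. Between Wnt3a and the combination Rsad2 and Ifi44 were called lower, against 0.334% of all probes, and 13 genes fell at any size, against 2.49%. These included Ifit3 (-0.88), Gbp4 (-0.68), Iigp1, Iigp2, Usp18 (-0.57), Rtp4 (-0.55) and Ifi27 (-0.50). When slide was a term, 3 genes fell in each of these contrasts, against 0.466% and 0.752% of all probes. Only Ifitm1 was then called between Rspo2 and Wnt3a and only Rsad2 between Wnt3a and the combination, against 0.132% and 0.391%. In the interaction 5 genes passed with a negative value (Gbp4, Isg20, Ifit3, Ifi27 and Ifi204) and 3 with a positive value (Gbp3, Parp9 and Trim21), against 5.31% and 3.58% of all probes. For the other 33 genes the departure from the sum of the single changes did not pass, which does not show that the changes added up.

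Transcripts of the pathway above these genes were read from lists of other interferon genes. None of the 7 interferon genes with a probe (Ifnb1, Ifna1, Ifna2, Ifna4, Ifna11, Ifnk and Ifng) was detected, which limits what can be said of them to signals not well above background. All 5 receptor genes were detected, none fell with either protein alone, and only Il10rb fell with both, by 0.23 (adjusted p = 0.0237). Ifnar1 was at -0.27 with both (adjusted p = 0.0819).

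Of the signal transducers Jak1, Jak2, Tyk2, Stat2 and Irf9, 4 fell with the combination, and Stat2 and Irf9 were called. Irf9 (Isgf3g on the array) lay at -0.26, -0.27 and -0.23 with BSA, at -0.78, -0.69 and -0.82 with Rspo2, at -1.09, -1.32 and -1.35 with Wnt3a, and at -1.86, -1.85 and -1.88 with both. Its changes were -0.51, -1.001 and -1.61. Stat2 changed by -0.65, -1.11 and -1.45 (adjusted p with both = 2.30e-05). Tyk2 fell by 0.70 with both and Jak1 by 0.37, whereas Jak2 at -0.10 did not pass (adjusted p = 0.40).

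Among 8 detected regulators, only Irf7, the factor that amplifies interferon production, was called lower. It lay at -1.54, -1.58 and -1.62 with BSA, at -2.07, -2.13 and -2.05 with Rspo2, at -3.07, -2.96 and -2.74 with Wnt3a, and at -3.03, -3.62 and -3.64 with both (change -1.85, adjusted p = 9.64e-06). Irf1, an early target of interferon γ, was at 0.09 with both (adjusted p = 0.43). Socs1, which inhibits the JAK kinases, rose by 0.37 with both (adjusted p = 0.0218), as did Pias1 by the same amount, and Socs3 fell by 0.38.

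The OAS proteins sense double-stranded RNA. Of 7 detected OAS genes all fell with the combination and 4 were called. Oas2 lay at -0.73, -0.73 and -0.84 with BSA, at -2.09, -2.15 and -2.77 with Rspo2, at -3.06, -3.04 and -3.21 with Wnt3a, and at -4.04, -3.99 and -4.004 with both. It was called in each treatment, with changes of -1.57, -2.34 and -3.24. Oasl1 changed by 0.32 with Rspo2 (adjusted p = 0.406) and -0.13 with Wnt3a (adjusted p = 0.734), and was called lower with both at -1.32 (adjusted p = 0.00243), with an interaction of -1.50 (adjusted p = 0.0322).

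**Figure D5:**
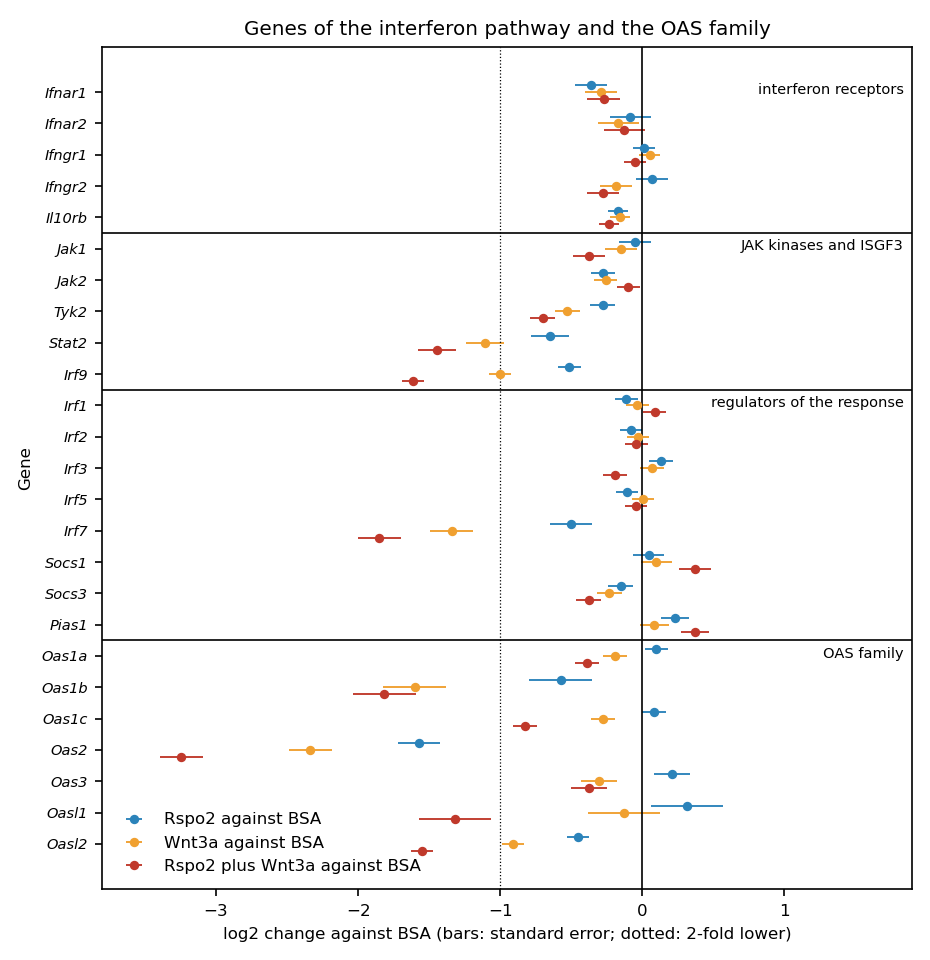
Log2 change against BSA with Rspo2 (blue), Wnt3a (orange) and both (red), with standard errors as bars, for detected receptor genes, JAK kinases, Stat2 and Irf9, regulators and OAS genes. The 5 receptor genes lie within 0.36 of 0, while Stat2, Irf9, Irf7 and Oas2 lie beyond the dotted 2-fold line with both.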

How the data were processed

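Labelled cRNA of C57MG cells in 4 treatment groups of 3 replicates was hybridized to 12 single-colour arrays. The intensity values were made by the authors with Agilent Feature Extraction 9.5.3.1, which subtracted background; the deposited ratio values were divided by the 75th percentile of each array. The genome build of the probes is not given in the sources used here. Here, 1327 of 520548 spot values flagged as uneven or outlying were left out, spots of a probe were averaged, and each array's 75th percentile was subtracted from its log2 intensities. A probe was detected when well above background on all 3 arrays of a group. Groups were compared in a single limma 3.58.1 fit (R 4.3.3) over all 12 arrays, whose prior had 2.74 degrees of freedom, with Benjamini-Hochberg adjustment over 22750 probes; calls needed an adjusted p under 0.05 and at least 2-fold. The exact permutation test of 3 arrays against 3 cannot give a p under 0.1 and was not used. The fit was tested on simulated data. Members and lists were chosen with earlier results of these data known. The genes described are, in each of 8 groups by role, the 3 with the largest change with both proteins, and any called in the interaction; the others are named to account for every member. A bound replaces a fold where a group had no array well above background. Old names were updated by accession or synonym in the RefSeq annotation (GRCm38.p6). The closing section gives the effect of 15 alternatives and of omitting any of the 12 arrays. The number of arrays limits precision. Figures and tables were made with python 3.11.15, numpy 2.4.6, pandas 2.3.3, data.table version 1.17.8 and matplotlib 3.10.9. Some genes of the pathway are not reported here.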

Additional observations from a re-analysis of the deposited data

Results flagged for a closer look

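The response to both proteins differed from the sum of the responses to each in 8 of the 41 genes, by the limma interaction test at an adjusted p under 0.05. The interaction was negative for Gbp4 (-0.89), Isg20 (-0.75), Ifit3 (-0.63), Ifi27 (-0.60) and Ifi204 (-0.37). It was positive for Gbp3 (1.01), Parp9 (0.64) and Trim21 (0.49). Among all detected probes, 5.31% passed the same test with a negative value and 3.58% with a positive value. Of these 8 only Gbp3 reached 2-fold. With slide as a term none of the 41 interactions passed, the lowest adjusted p being 0.0798 for Gbp3, whose value was again 1.01. Single outlying arrays were not tested for, since groups held only 3.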

How the results depend on the processing

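Under the 15 alternatives and with each array left out, the medians of the 41 genes stayed below 0 in all 3 contrasts with BSA. Median scaling moved the median of all detected probes by 0.16, 0.33 and 0.22, and the gene medians to -0.089, -0.18 and -0.46; relative to all probes they were -0.27, -0.51 and -0.72, against -0.27, -0.51 and -0.72 in the main setting. Scaling by the percentile of the probes that were above background everywhere gave -0.35, -0.63 and -0.79. With normexp the medians with Rspo2 and with both were -0.16 and -0.59, with both it was -0.62 over the probes above background on each of the 12 arrays, and with slide as a term it was -0.78. Leaving out an array gave -0.29 to -0.23 (Rspo2), -0.54 to -0.47 (Wnt3a) and -0.74 to -0.63 (both). All 28 genes that fell with both stayed negative under the 4 other background corrections and scalings and with the deposited ratios; of the 17, 26 and 28 that fell with Rspo2, Wnt3a and both, 0, 6 and 17 still passed with normexp, 15, 23 and 28 with quantile normalization, 8, 15 and 23 with median scaling, and 0, 3 and 9 with slide as a term. With Rspo2, Gbp6 and Phf11 turned positive under normexp, and with Wnt3a, Tgtp and Parp12 under median scaling.

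The count of 16 called lower with both was 8 with slide as a term, 12 with normexp, 28 with no fold threshold, and 15 to 16 with an array left out. The count of 10 with Wnt3a was 2 with normexp, 6 with quantile normalization, 3 with median scaling, 3 with slide as a term, 2 by the methods' t-test after Benjamini-Hochberg adjustment (10 without) and 26 with no fold threshold; an array left out gave 6 (without BSA replicate 1) to 10. The count of 1 with Rspo2 was 0 with normexp, median scaling, no filter, the positive and significant flag, slide as a term and the adjusted t-test of the methods, 2 with the percentile of the probes above background everywhere, 17 with no fold threshold and 0 to 1 with an array left out. Wnt3a against Rspo2 (0) gave 1 with slide as a term, 6 with no fold threshold and 0 to 0 with an array left out. Both against Wnt3a (2) gave 0 with normexp, the adjusted t-test and the mean of all detected probes, 1 with no filter, slide as a term and only the arrays compared, 3 with median scaling, quantile normalization and the probes above background on each array, 13 with no fold threshold and 1 to 3 with an array left out: 1 without Wnt3a replicate 1 or 2 or combination replicate 2 or 3. The interaction (1) gave 0 with normexp and slide as a term, 2 with quantile normalization, 3 with median scaling, 8 with no fold threshold and 0 to 2 with an array left out. Of the 13 described genes called lower with both, 7 kept the call in all alternatives, and no called change reversed. The causes were not tested.

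Same-numbered replicates were not paired: correlations of their deviations ran from -0.52 to 0.32. The replicate block gave 0, 10 and 16 calls with Rspo2, Wnt3a and both, 3 in both against Wnt3a, 0 in Wnt3a against Rspo2 and 1 in the interaction.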
